A study of Homo sapiens with 20 samples.

Results

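Ricolinostat was followed from 5 h to 20 h in OPM2, a cell line grown from a patient with multiple myeloma, the cancer of antibody-secreting plasma cells. The 4 libraries compared were all those of the raw count table harvested after 5 h (2 libraries) and after 20 h (2 libraries) of 100 nM ricolinostat, out of 20 libraries in the series, and every expressed gene was taken. Of 78932 gene identifiers, 20957 passed the filter on low counts and were tested. Beside them stand 2 libraries of cells given DMSO, the solvent, for which the labels give no harvest time, 2 libraries after 2 h of ricolinostat, and the 5 h and 20 h libraries of 10 nM panobinostat and 10 nM romidepsin (2 per group). All groups are the same line in the same medium, and the labels call the 2 libraries of a group independent biological replicates and the batch unknown. The ricolinostat dose is 100 nM in the titles, the treatment protocol and the design text, and 10 nM in the treatment field of the same samples. The comparison asks which transcripts differ between an early and a late harvest under the same inhibitor; the DMSO libraries carry no time, so time in culture and time on the inhibitor cannot be told apart.

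Histone deacetylases (HDACs) remove acetyl groups from lysines of histones and of other proteins. Ricolinostat is a hydroxamic acid made to favour HDAC6, a mostly cytoplasmic enzyme whose known substrates are tubulin, cortactin and the chaperone HSP90. Panobinostat, also a hydroxamic acid, and romidepsin, a cyclic peptide, act on the nuclear class I enzymes. How far either of them also acts on HDAC6 was not tested here, so differences between inhibitors cannot be assigned to single enzymes. Plasma cells make large amounts of secreted protein and are known for their dependence on chaperones, the endoplasmic reticulum and the proteasome.

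Total counts were 21916260 to 27405987 in the 4 libraries. Of the planned plasma cell markers, SDC1, TNFRSF17, IRF4, PRDM1, XBP1, FGFR3 and NSD2 were present, and a further planned marker is not reported here. The lowest of those named was TNFRSF17 with 180.1 and 156 CPM at 5 h and 225 and 226 CPM at 20 h (CPM, counts scaled to a common library size with TMM factors). Summed markers of T and NK cells, in CPM without TMM scaling, stayed between 0.255 and 0.81 at 5 h and between 0.77 and 0.776 at 20 h, with 6 of 13 at 0 in all 4 libraries. Myeloid markers summed to 1.93 and 2.03 at 5 h and 0.685 and 0.958 at 20 h (6 of 12 at 0), early B cell markers to 5.98 and 7.83 against 4.75 and 4.97 (6 of 11 at 0), and epithelial markers to 0.474 to 1.16 (4 of 7 at 0). The stromal sum (597 to 613) was nearly all VIM and the erythroid sum (19.7 to 24.6) nearly all EPOR. Counts from mitochondrial DNA took 4.095% and 4.417% of the library at 5 h and 4.724% and 5.094% at 20 h; the part of these shifts in the results was not tested. In bulk RNA, fewer cells expressing a gene and less RNA per cell cannot be told apart. The 5 h libraries differed from each other more than the 20 h libraries (chi-square per degree of freedom 4.25 and 2.7).

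From 5 h to 20 h of ricolinostat 3610 genes rose and 4335 fell, which is 17.2% and 20.7% of the genes tested (edgeR quasi-likelihood F test, Benjamini-Hochberg adjusted p below 0.05, n = 2 libraries per group). The rises were larger and lay at lower levels: 1207 genes rose at least 2-fold (5.76%) and 324 fell at least 2-fold (1.55%). Only 306 of those 1207 and 103 of those 324 reached a mean of 5 CPM at either time, and 185 and 38 had at most 3 counts over the 2 libraries of a group. In 63.3% of all genes tested the 5 h and 20 h libraries did not overlap, so with 2 libraries a group a lack of overlap alone says little. Among the 2558 genes above 100 CPM, 522 rose and 1343 fell. Between 20 and 100 CPM, 1067 of 4862 genes rose and 2090 fell. Falls were thus more common among well expressed genes than the 20.7% over all genes, which bears on the list counts below. Changes are given as log2 of 20 h over 5 h ± SE from this fit, and the median over all genes tested was 0.00. Protein-coding genes fell more often than they rose (4121 and 2648 of 13609), while 626 of 3352 long non-coding RNA genes rose (18.7%) and 97 fell (2.89%). The balance of rises and falls turned over with scaling: 45.4% of the calls were rises with TMM and 54.9% (4336 rises and 3564 falls) with library size as the only scaling, which shifted the median of all genes by 0.06. The splits by level and gene type are those with TMM.

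**Figure D1:**
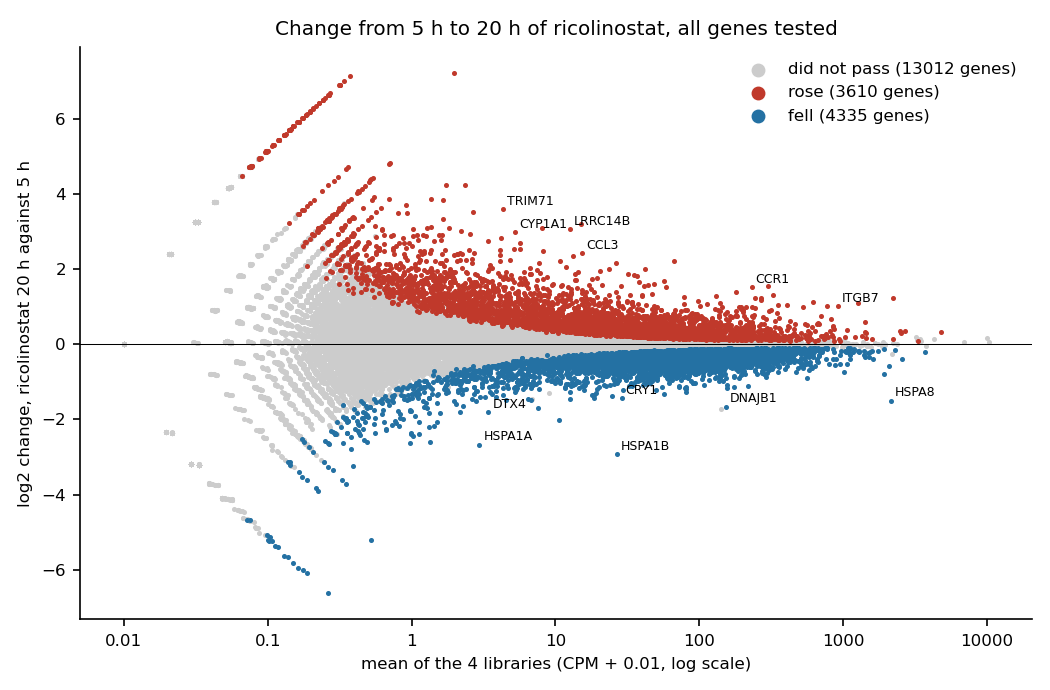
Log2 change from 5 h to 20 h of ricolinostat against the mean level of the 4 libraries (CPM + 0.01, log axis), 1 point per gene tested, with 3610 genes that rose in red, 4335 that fell in blue and the others in grey. Most changes of 2-fold or more lie at the left, among genes below 5 CPM, and HSPA1B, DNAJB1 and HSPA8 stand out among the falls.

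Genes of the heat shock response, whose chaperones refold and hold damaged proteins, were among the largest falls. Of 29 heat shock and chaperone genes tested, 21 fell and 1 rose, with a median change of -0.53 against 0.00 for all genes (of which 20.7% fell), and 6 of the 21 fell at least 2-fold. HSPA1B, the stress-inducible HSP70 (GRCh38 chr6:31827735-31830255, + strand, ENSG00000204388), stood at 41.7 and 52.5 CPM at 5 h and 5.86 and 6.53 CPM at 20 h. All its 20 h values lay below all its 5 h values, a change of -2.92 ± 0.10 (edgeR adjusted p = 1.45e-47) or 7.57-fold. After 2 h of ricolinostat HSPA1B was at 64.8 and 68.8 CPM and in DMSO at 6.01 and 6.04. The values at 20 h overlapped those of DMSO, with a difference of 0.04 ± 0.13 (edgeR adjusted p = 0.888). Its neighbour HSPA1A, which encodes the same protein from a near-identical sequence so that shared reads are uncertain, went from 4.62 and 5.57 to 0.728 and 0.861 CPM, a change of -2.67 ± 0.27 (edgeR adjusted p = 3.64e-15).

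DNAJB1 (GRCh38 chr19:14514770-14529770, - strand, ENSG00000132002), the HSP40 partner that hands substrates to HSP70, stood at 228 and 236 CPM at 5 h and 71 and 75.9 CPM at 20 h. It changed by -1.66 ± 0.05 (edgeR adjusted p = 8.60e-54) without overlap and ended below its DMSO values of 96.3 and 94 CPM (-0.37 ± 0.05 against DMSO, edgeR adjusted p = 1.74e-10). HSPA8 (GRCh38 chr11:123057489-123063230, - strand, ENSG00000109971), the constitutive HSP70, stood at 3144 and 3195 CPM at 5 h and 1117 and 1128 CPM at 20 h. Its change was -1.50 ± 0.03 (edgeR adjusted p = 3.90e-62). DMSO libraries held 1965 and 1986 CPM, so that HSPA8 was above the solvent level at 5 h and below it at 20 h (-0.82 ± 0.03, edgeR adjusted p = 7.69e-40). HSP90AA1 (2468 and 2396 to 1397 and 1391 CPM) changed by -0.80 ± 0.03 (edgeR adjusted p = 3.97e-40) and HSP90AB1 (2525 and 2434 to 1646 and 1659.6 CPM) by -0.59 ± 0.03 (edgeR adjusted p = 2.05e-29), and neither passed at 5 h against DMSO (means 2463 and 2364 CPM in DMSO, edgeR adjusted p = 0.744 and edgeR adjusted p = 0.106). These genes code for the cytosolic chaperone that HDAC6 is known to deacetylate. BAG3, a co-chaperone that links HSP70 to autophagy, changed by -0.56 ± 0.05. SERPINH1, the collagen chaperone, was the one member of the list that rose (0.50). The list of 26 genes for substrates and partners of HDAC6 shares BAG3 and HSP90 genes with the chaperones. Of these 26 genes 15 fell and 3 rose (median -0.17), beside 1343 falls among all 2558 genes above 100 CPM. The 3 that rose were CTTN, which encodes cortactin (6.96 and 6.08 to 10.7 and 9.48 CPM, 0.63 ± 0.14, edgeR adjusted p = 1.71e-04), KEAP1 (0.56 ± 0.05) and TUBA1A (0.33 ± 0.07).

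The promoters of 2 of the falling chaperone genes are shown because they hold the letters of the heat shock element, the repeat that the factor HSF1 is known to bind. The windows are the 250 bases before the RefSeq start site (GRCh38.p14), with the match in capitals: GAA, NN, TTC, NN and GAA in a row (N is any base) on either strand for HSPA8 (chr11:123062137-123062386, - strand) and the shorter GAA, NN and TTC for HSPA1B (chr6:31827488-31827737, + strand).
HSPA8: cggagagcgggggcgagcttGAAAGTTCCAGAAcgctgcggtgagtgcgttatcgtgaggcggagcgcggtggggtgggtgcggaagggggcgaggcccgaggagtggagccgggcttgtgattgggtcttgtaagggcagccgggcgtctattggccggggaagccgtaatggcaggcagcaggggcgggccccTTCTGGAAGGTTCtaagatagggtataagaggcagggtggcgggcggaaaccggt
HSPA1B: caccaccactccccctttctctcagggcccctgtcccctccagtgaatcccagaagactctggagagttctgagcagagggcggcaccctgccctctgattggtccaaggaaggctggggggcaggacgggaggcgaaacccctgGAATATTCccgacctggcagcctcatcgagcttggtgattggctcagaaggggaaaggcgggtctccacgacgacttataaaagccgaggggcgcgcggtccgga
HSPA8 held 2 matches, starting 230 and 55 bases before the start site, and HSPA1B held 1, starting 105 bases before it. Of the 27305 gene promoters of this length, 0.439% held the longer motif and 5.85% the shorter, which is contained in the longer. Of 27 chaperone genes of the list with a promoter in the table, 4 held the longer motif (3 of them fell, 1 rose) and 9 the shorter (6 fell, 1 rose), while 14 of the 18 without either fell. A match is a description of letters, and genes without one fell as well.

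Most genes of the endoplasmic reticulum list fell. Of 32 genes of the unfolded protein response, which adjusts folding capacity in the endoplasmic reticulum, 26 fell and 2 rose (median -0.47), none of the falls reaching 2-fold. SYVN1, the ubiquitin ligase of endoplasmic reticulum degradation, went from 166 and 188 to 93.8 and 98.3 CPM, a change of -0.88 ± 0.05 (edgeR adjusted p = 3.20e-30). SDF2L1 (change -0.73 ± 0.07), MANF (-0.70 ± 0.05) and CALR (-0.70 ± 0.04), a chaperone, a secreted protective factor and a calcium-binding lectin of this compartment, fell without overlap of the libraries. CALR held 712 and 720.5 CPM at 5 h and 444 and 439 CPM at 20 h. The transcription factor gene XBP1, which drives secretory capacity in plasma cells, held 749 and 712 CPM at 5 h and 765 and 756 CPM at 20 h and did not pass the test at 0.06 ± 0.04 (edgeR adjusted p = 0.229). It passed with 3 of the other settings, where its change was between 0.09 and 0.13.

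The ER stress element, CCAAT and CCACG with 9 bases of any kind between them, searched on both strands, is printed in capitals in the promoters of CALR (chr19:12938359-12938608, + strand) and HSP90B1 (chr12:103930160-103930409, + strand), since both genes fell (HSP90B1 changed by -0.58 ± 0.04, CALR as above) and few promoters hold it.
CALR: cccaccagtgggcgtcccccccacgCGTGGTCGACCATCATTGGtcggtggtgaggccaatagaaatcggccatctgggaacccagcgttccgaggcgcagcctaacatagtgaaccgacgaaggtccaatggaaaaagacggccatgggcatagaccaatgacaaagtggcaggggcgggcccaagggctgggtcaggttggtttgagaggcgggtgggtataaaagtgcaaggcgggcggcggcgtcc
HSP90B1: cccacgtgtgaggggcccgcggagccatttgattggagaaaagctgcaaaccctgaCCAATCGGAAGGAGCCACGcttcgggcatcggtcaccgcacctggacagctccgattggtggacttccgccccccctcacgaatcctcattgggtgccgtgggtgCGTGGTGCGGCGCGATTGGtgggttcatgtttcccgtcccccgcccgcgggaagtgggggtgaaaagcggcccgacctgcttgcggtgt
It was present in 0.0806% of all promoters of this length and in 6 of the 30 listed genes with a promoter in the table. Of those 6 genes 5 fell, and of the 24 without it 19 fell.

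Sterol synthesis genes also fell together: 22 of 26 fell and 1 rose, with a median of -0.58. SQLE, squalene epoxidase and a controlled step of the pathway, held 118 and 132 CPM at 5 h and 64.2 and 58.9 CPM at 20 h. It changed by -1.02 ± 0.05 (edgeR adjusted p = 1.63e-31) and had been at 127 and 132 CPM at 2 h and 71.7 and 73.3 in DMSO. MVK (-0.82 ± 0.09), IDI1 (-0.81 ± 0.05), LSS (-0.80 ± 0.04) and HMGCS1 (-0.66 ± 0.06), which act before and after squalene, fell as well. Of 16 fatty acid synthesis genes 9 fell and 1 rose. That is near the share of falls among all genes above 100 CPM (1343 of 2558), and 2090 of 4862 fell at 20 to 100 CPM. SREBF1, which encodes the regulator SREBP1, fell (704 and 773 to 478 and 473 CPM, -0.64 ± 0.04, edgeR adjusted p = 4.36e-28), as did the desaturase SCD (-0.54 ± 0.04).

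Smaller falls ran through the genes of protein turnover and growth. Of 38 proteasome subunit genes 33 fell and none rose (median -0.33), led by the activator subunit PSME2 (96.6 and 90.4 to 54.4 and 53.7 CPM, -0.79 ± 0.06, edgeR adjusted p = 1.76e-21), then PSMC6 (-0.56 ± 0.06), PSMD2 (-0.55 ± 0.04) and PSME3 (-0.50 ± 0.04). Of 45 ribosome biogenesis genes 33 fell and 2 rose (median -0.35). RRP9, a protein of the small nucleolar particle that processes ribosomal RNA, went from 64 and 64.6 to 34.2 and 34.9 CPM (-0.90 ± 0.07, edgeR adjusted p = 2.33e-21), whereas UBTF, which directs RNA polymerase I to ribosomal genes, went up from 227 and 192 to 346 and 343 CPM (0.71 ± 0.05, edgeR adjusted p = 4.77e-16). Cytosolic ribosomal protein genes mostly did not pass: 17 of 77 fell and 6 rose (median -0.04). Their direction is not settled, since 22 rose and 4 fell with library size as the only scaling, and 11 rose and 5 fell with DESeq2. None of the 13 mitochondrially encoded mRNAs passed, with changes of 0.01 to 0.18. Some rose with other settings: 6 with no filter on low counts, 6 with the compared libraries alone and 3 with DESeq2.

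Of 20 cytosolic aminoacyl-tRNA synthetases 14 fell and 3 rose, with WARS1, the tryptophan enzyme, in front (223 and 229 to 124 and 122 CPM, -0.87 ± 0.05, edgeR adjusted p = 2.06e-32). Of 16 amino acid transporters 9 fell and none rose. SLC7A5, the large neutral amino acid carrier LAT1, stood at 715 and 727 CPM at 5 h and 394 and 386 CPM at 20 h, a change of -0.89 ± 0.04 (edgeR adjusted p = 3.84e-34), and its DMSO values were 993 and 986 CPM. SLC7A5 was thus lower than DMSO at 5 h and lower still at 20 h. GPT2, an alanine transaminase controlled by the factor ATF4, went from 232 and 245 to 113 and 104 CPM (-1.13 ± 0.05, edgeR adjusted p = 2.78e-39). It was one of 14 of 31 genes of the integrated stress response that fell, against 3 that rose. Beside these list counts, 2090 of 4862 tested genes at 20 to 100 CPM fell, and 1343 of 2558 above 100 CPM.

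DNA replication and nucleotide synthesis genes fell in 32 of 48 cases and rose in 3 (median -0.28). CCNE1, the cyclin of S phase entry, went from 51.9 and 53 to 27.4 and 27.7 CPM (-0.93 ± 0.08, edgeR adjusted p = 4.30e-18), and the origin licensing and firing genes CDC6 (-0.79 ± 0.05) and CDC45 (-0.79 ± 0.06) fell without overlap. Mitosis genes were divided, with 14 of 36 higher and 7 lower (median 0.04), beside 17.2% and 20.7% of all genes tested. TOP2A, which untangles chromosomes, rose by 0.49 ± 0.04 and CKS2, a CDK-binding subunit, changed by -0.48 ± 0.06.

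Other falls concerned single regulators. NFKB2, the precursor of the non-canonical NF-kB subunit p52, held 109 and 118 CPM at 5 h and 49.2 and 49.3 CPM at 20 h and changed by -1.20 ± 0.06 (edgeR adjusted p = 9.49e-36). At 2 h it was at 101 and 104 CPM and in DMSO at 53.8 and 52, and the difference between 20 h and DMSO did not pass (-0.10 ± 0.06, edgeR adjusted p = 0.199). NFKBIE, an inhibitor of NF-kB, changed by -1.28 ± 0.13 and RELB, the partner of p52, by -0.75 ± 0.11. Of the 20 NF-kB genes tested 7 fell and 4 rose, beside 20.7% and 17.2% of all genes tested. CRY1, a repressor of the circadian clock, went from 44.3 and 39.6 to 14.1 and 17.2 CPM (-1.42 ± 0.09, edgeR adjusted p = 2.18e-26), and MXD1, which competes with MYC for MAX, from 15.8 and 23.2 to 10.1 and 9.11 CPM (-1.01 ± 0.11, edgeR adjusted p = 1.44e-12). MYC itself rose slightly, with 344 and 335 CPM at 5 h and 386 and 378 CPM at 20 h and a change of 0.17 ± 0.04 (edgeR adjusted p = 6.70e-04).

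Among the remaining largest falls, TPPP, a tubulin-polymerising protein, went from 10.1 and 13.1 to 3.42 and 3.63 CPM (-1.71 ± 0.15, edgeR adjusted p = 1.14e-18), and TIGAR, which lowers glycolytic flux, from 9.38 and 9.59 to 4.07 and 2.81 CPM (-1.46 ± 0.16, edgeR adjusted p = 1.19e-13). DTX4 (-1.81 ± 0.25) and IFFO2 (-1.49 ± 0.18) fell from means of 5.3 and 6.72 CPM at 5 h. C4B (19.7 and 17.6 to 7.06 and 6.44 CPM, -1.47 ± 0.18) has the near-identical copy C4A, so its reads are uncertain. DACT3, an inhibitor of Wnt signalling, held 13 and 21 CPM at 5 h and 5.48 and 2.77 CPM at 20 h, the most scattered values of this group. Its change of -2.01 ± 0.25 (edgeR adjusted p = 3.84e-05) did not pass when only the 4 libraries compared were fitted (edgeR adjusted p = 0.0549).

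**Figure D2:**
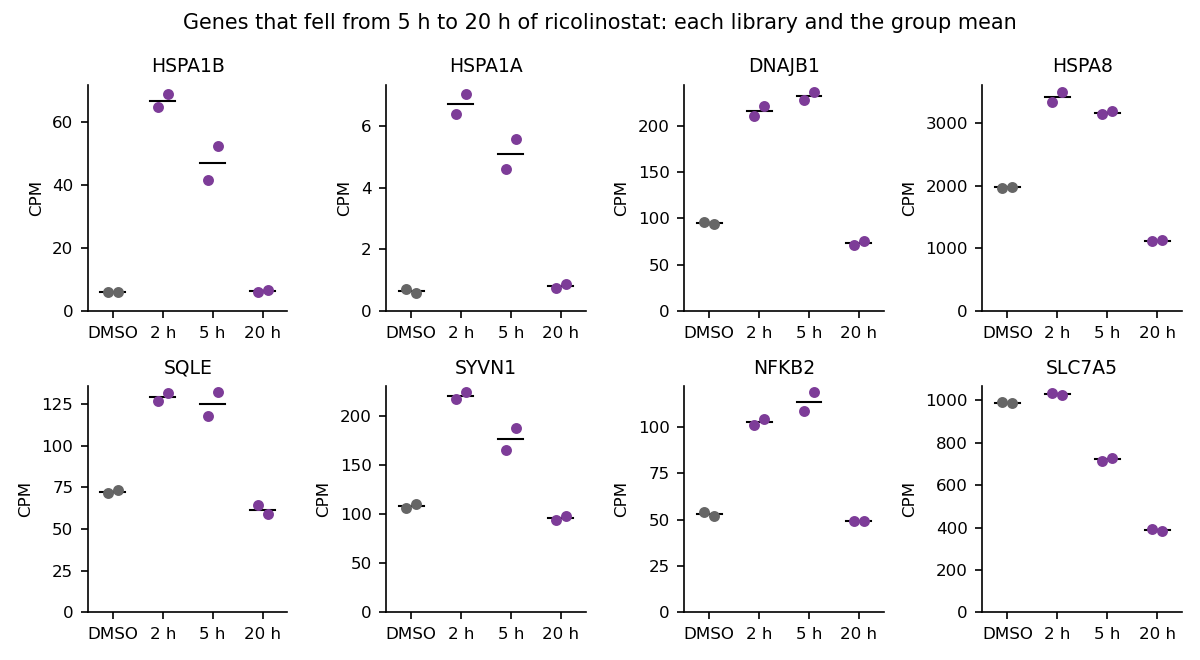
CPM of 8 genes that fell, with 1 point per library and a bar at the mean of the 2 libraries, for DMSO (grey) and for 2 h, 5 h and 20 h of ricolinostat (purple); each axis starts at 0. HSPA1B, HSPA1A, DNAJB1, HSPA8, SQLE, SYVN1 and NFKB2 are above DMSO at 2 h and 5 h and near or below it at 20 h, whereas SLC7A5 is below DMSO at both 5 h and 20 h.

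The largest rises were of genes with low levels at 5 h. TRIM71 (GRCh38 chr3:32818018-32897826, + strand, ENSG00000206557), an RNA-binding ubiquitin ligase known from stem cells, held 0.769 and 0.515 CPM at 5 h and 8.26 and 7.71 CPM at 20 h and rose by 3.61 ± 0.34 (edgeR adjusted p = 3.87e-16). In DMSO it was at 3.64 and 3.24 CPM, between the 2 times. LRRC14B (2.65 and 2.71 to 22.9 and 22.1 CPM, 3.07 ± 0.20) and ERICH3 (1.77 and 1.59 to 15.3 and 13.5 CPM, 3.09 ± 0.21) followed, both of them also lower at 5 h than in DMSO (means 11.9 and 4.98 CPM).

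CYP1A1 (GRCh38 chr15:74719542-74725610, - strand, ENSG00000140465), the monooxygenase known as the classic target of the aryl hydrocarbon receptor, held 1.38 and 0.889 CPM at 5 h and 8.77 and 9.75 CPM at 20 h. It rose by 2.99 ± 0.21 (edgeR adjusted p = 5.14e-24) or 7.96-fold and exceeded its DMSO values of 1.48 and 1.9 CPM. MAP2 (1.77 and 1.22 to 10.1 and 9.75 CPM, 2.71 ± 0.17, edgeR adjusted p = 5.01e-27), a neuronal microtubule protein, also ended above DMSO (1.91 and 1.34 CPM). The matrix protein gene TNC (2.49 ± 0.21), the prolactin receptor gene PRLR (2.54 ± 0.25), OTOGL (2.54 ± 0.24), MOXD1 (2.50 ± 0.30) and the myoglobin gene MB (2.37 ± 0.20) rose from means between 1.22 and 2.44 CPM at 5 h to means between 6.89 and 13.9 CPM at 20 h.

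Chemokine and cytokine receptor genes rose more often than they fell. Of 16 chemokine and cytokine receptor genes 9 rose and 2 fell (median 0.66), beside 17.2% and 20.7% of all genes tested. Rises also outnumbered falls among all genes with a mean of 1 to 5 CPM (735 and 240 of 3181). At 5 to 20 CPM they did so as well (798 and 522 of 2600). CCR1 (GRCh38 chr3:46201709-46208396, - strand, ENSG00000163823), a chemokine receptor of myeloma cells, held 125 and 113 CPM at 5 h and 344 and 342 CPM at 20 h. The change was 1.53 ± 0.05 (edgeR adjusted p = 3.34e-48), after 72.3 and 71.4 CPM at 2 h and 301 and 287 in DMSO, so that the values at 20 h were above those of DMSO (0.22 ± 0.05, edgeR adjusted p = 6.02e-05). CCL3, a ligand of CCR1, went from 4.85 and 4.73 to 28.2 and 23.4 CPM (2.43 ± 0.16, edgeR adjusted p = 1.76e-25) and IL21R from 2.58 and 1.97 to 7.4 and 8.03 CPM (1.75 ± 0.20, edgeR adjusted p = 2.95e-12). The interleukin 6 receptor gene IL6R went the other way, from 51.6 and 44.6 to 25.8 and 25.1 CPM (-0.92 ± 0.08, edgeR adjusted p = 6.44e-19), and was at 71 and 69.6 CPM in DMSO. GPR171, a G protein-coupled receptor, rose from 4.27 and 4.4 to 24.1 and 20.0 CPM (2.35 ± 0.16).

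Interferon-stimulated genes rose in 16 of 37 cases and fell in 2 (median 0.63, and 0.71 with scarce members set to their bound at a floor of 3 counts over the 2 libraries of a group). Of the 37 members 8 had at most 3 counts in a group. Over all genes tested 17.2% rose and 20.7% fell, and at 1 to 5 CPM 735 of 3181 rose and 240 fell. PARP14, an ADP-ribosyltransferase (GRCh38 chr3:122680618-122730840, + strand, ENSG00000173193), held 6.92 and 7.63 CPM at 5 h and 17.6 and 15.2 CPM at 20 h and changed by 1.18 ± 0.15 (edgeR adjusted p = 3.17e-11), against 4.32 and 6.37 CPM in DMSO. UBE2L6, the enzyme that conjugates ISG15, went from 8.73 and 8.42 to 13.4 and 13.1 CPM (0.63 ± 0.15) and SAMD9L from 50.4 and 50.2 to 71.7 and 71.9 CPM (0.51 ± 0.07), while the factor IRF1 went from 10.2 and 10.5 to 7.1 and 8.03 CPM, a change of -0.45 ± 0.14 (edgeR adjusted p = 0.00607) that did not pass without replicate 1 of 20 h (-0.36, edgeR adjusted p = 0.0995).

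The promoter of PARP14 (chr3:122680589-122680838, + strand) is shown with its interferon-stimulated response element, GAAA, NN and GAAA in a row on either strand, in capitals.
PARP14: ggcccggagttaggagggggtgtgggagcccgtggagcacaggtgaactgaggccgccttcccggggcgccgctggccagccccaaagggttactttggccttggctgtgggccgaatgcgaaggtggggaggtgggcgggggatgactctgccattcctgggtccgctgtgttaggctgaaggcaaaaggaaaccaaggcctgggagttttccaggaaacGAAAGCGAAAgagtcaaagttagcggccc
This motif was found in 3.07% of all promoters of this length and in 17 of the 29 listed genes with a promoter in the table. Of these 17 genes 10 rose and none fell, and of the 12 without it 5 rose and 1 fell.

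Histone genes of the replication-dependent clusters, whose transcripts mostly lack a poly(A) tail and are therefore counted here only in their polyadenylated part, rose in 13 of 27 cases and fell in none (median 0.97). H2BC5 went from 2.92 and 3.28 to 10.3 and 8.71 CPM (1.62 ± 0.17, edgeR adjusted p = 6.19e-14) and H2AC6 from 4.38 and 4.35 to 10.7 and 11.2 CPM (1.33 ± 0.18, edgeR adjusted p = 2.81e-10). H2AC11 (1.56 ± 0.18) and H3C10 (0.96 ± 0.15) rose also, and reads of such similar genes are uncertain. Beside the list count, 17.2% of all genes tested rose. At 1 to 5 CPM 735 of 3181 rose and 240 fell, and at 5 to 20 CPM 798 of 2600 rose and 522 fell.

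Plasma cell and myeloma genes were divided: 11 of 32 rose and 8 fell (median 0.02), beside 17.2% and 20.7% of all genes tested. ITGB7, the integrin chain known from homing of myeloma cells to marrow, held 586 and 630.1 CPM at 5 h and 1217 and 1231 CPM at 20 h, a change of 1.01 ± 0.04 (edgeR adjusted p = 2.57e-43), against 706 and 704 CPM in DMSO. Its partner ITGA4 went from 144 and 134 to 265 and 259 CPM (0.91 ± 0.05, edgeR adjusted p = 2.82e-28), the co-stimulatory receptor CD28 from 152 and 130.3 to 256 and 261 CPM (0.87 ± 0.05, edgeR adjusted p = 4.63e-30) and the lymphoid factor IKZF3 from 71.7 and 66.4 to 111 and 115 CPM (0.71 ± 0.06). SDC1, the surface marker CD138, held 739 and 693 CPM at 5 h and 976 and 988 CPM at 20 h (0.46 ± 0.04, edgeR adjusted p = 2.20e-18). TNFRSF17, the surface receptor BCMA, rose by 0.43 ± 0.05, FGFR3 by 0.30 ± 0.03 and NSD2 by 0.35 ± 0.03, while IRF4 fell by 0.20 and PRDM1 did not pass (-0.05 ± 0.04, edgeR adjusted p = 0.391). IGHA2, an immunoglobulin heavy chain gene, went from 17.4 and 15.3 to 57.5 and 58.5 CPM (1.82 ± 0.11, edgeR adjusted p = 9.68e-23), and its near-identical copy IGHA1 changed by 1.80 ± 0.27, so that reads may be split between the copies.

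**Figure D3:**
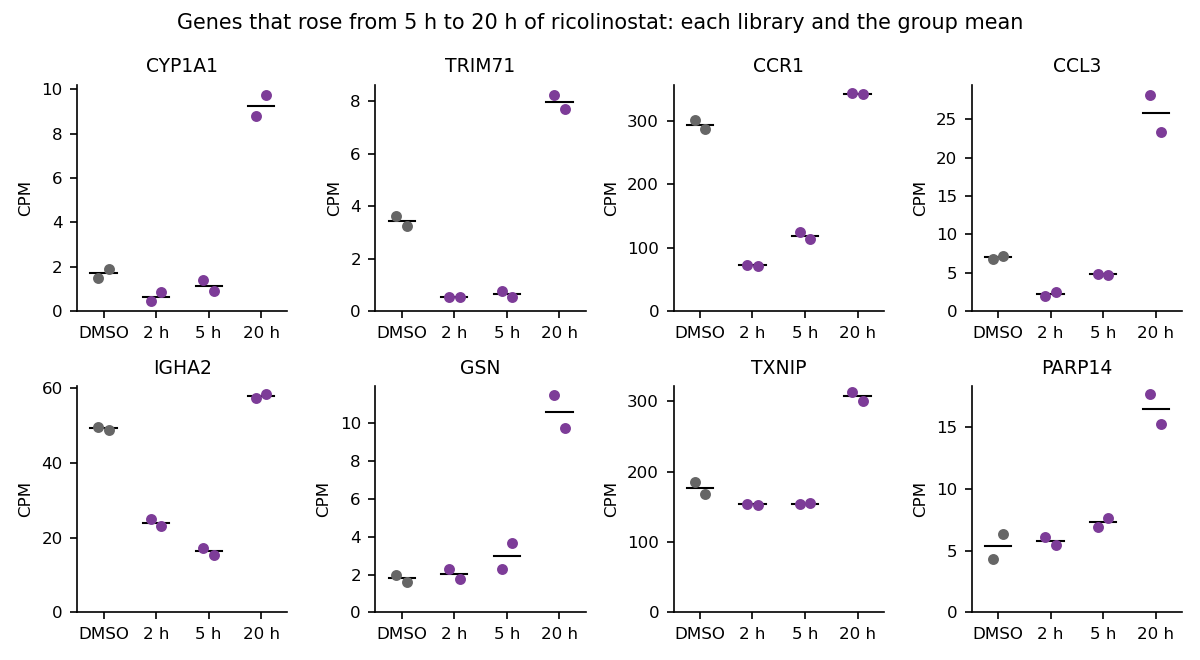
CPM of 8 genes that rose, drawn as for the falling genes: 1 point per library, a bar at the mean, DMSO in grey, ricolinostat at 2 h, 5 h and 20 h in purple, axes from 0. TRIM71, CCR1, CCL3, IGHA2, TXNIP and CYP1A1 are below DMSO at 2 h and 5 h, and all 8 genes are highest at 20 h. The difference of CYP1A1 between 5 h and DMSO did not pass (edgeR adjusted p = 0.122).

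The gene of the inhibitor's main target, HDAC6 (GRCh38 chrX:48801377-48824982, + strand, ENSG00000094631), rose from 48.2 and 50.1 to 81.1 and 82.7 CPM, a change of 0.74 ± 0.06 (edgeR adjusted p = 5.66e-20), and was at 70.5 and 67.8 CPM in DMSO. HDAC6 rose more over the same interval with panobinostat (difference -0.78 ± 0.08, edgeR adjusted p = 2.64e-14) and romidepsin (-0.42 ± 0.08, edgeR adjusted p = 5.60e-06). Among the 17 deacetylase genes 4 rose and 7 fell, beside 17.2% and 20.7% of all genes tested. HDAC9 rose from 34.8 and 33 to 69.1 and 67.1 CPM (1.00 ± 0.08, edgeR adjusted p = 7.62e-22), SIRT5 by 0.71 ± 0.13, HDAC1 changed by -0.19 ± 0.04 and SIRT7 by -0.59 ± 0.06. The acetyltransferase gene KAT6B rose from 27.2 and 26.2 to 65.6 and 68.6 CPM (1.33 ± 0.07, edgeR adjusted p = 2.24e-30) and KAT5 from 8.69 and 7.86 to 18.4 and 17.1 CPM (1.10 ± 0.13), and both had been higher in DMSO (means 90.4 and 19.5 CPM) than at 5 h. EZH2, the methyltransferase of Polycomb complex 2, went from 362 and 386 to 229 and 236 CPM (-0.69 ± 0.04, edgeR adjusted p = 3.58e-28), the DNA methyltransferase DNMT3B from 21.1 and 20.6 to 11.1 and 8.12 CPM (-1.11 ± 0.12), and TET1, which oxidises methylcytosine, from 21.4 and 17.3 to 42.3 and 44.2 CPM (1.15 ± 0.10).

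Genes long known to rise with HDAC inhibition were divided, with 7 of 24 higher at 20 h than at 5 h and 5 lower. Over all genes tested 17.2% rose and 20.7% fell. GSN, the actin-severing protein gelsolin, rose from 2.31 and 3.65 to 11.5 and 9.75 CPM (1.86 ± 0.16, edgeR adjusted p = 7.63e-19), against 1.99 and 1.6 CPM in DMSO. TXNIP, the inhibitor of thioredoxin, held 154 and 155 CPM at 5 h and 314 and 300.4 CPM at 20 h (0.99 ± 0.04, edgeR adjusted p = 1.61e-39). At 5 h TXNIP was below its DMSO values of 186 and 168 CPM (-0.19 ± 0.04, edgeR adjusted p = 6.51e-05). CDKN1A, the CDK inhibitor p21, held 47.8 and 55.2 CPM at 5 h and 85.6 and 87.3 CPM at 20 h (0.75 ± 0.05, edgeR adjusted p = 2.00e-22). The metallothionein gene MT1X went the other way (9.69 and 8.38 to 6.21 and 4.81 CPM, -0.72 ± 0.12). Among pro-apoptotic genes of the BCL2 family 3 of 14 were higher and 3 lower (median 0.01), near the shares over all genes. BMF rose from 73.5 and 77.8 to 186 and 185 CPM (1.30 ± 0.05, edgeR adjusted p = 5.32e-39), BAD (-0.55 ± 0.11) and BAK1 (-0.54 ± 0.06) fell, BCL2L11 did not pass (-0.01 ± 0.06, edgeR adjusted p = 0.983) and MCL1, an anti-apoptotic gene, changed by -0.17 ± 0.04. BTG1, an antiproliferative gene counted here with the immediate-early genes, rose from 236 and 224 to 487 and 459.7 CPM (1.04 ± 0.04, edgeR adjusted p = 1.75e-40), and DUSP6 and SPRY1, both brakes on MAP kinase signalling, by 0.80 ± 0.06 and 0.77 ± 0.07.

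**Figure D4:**
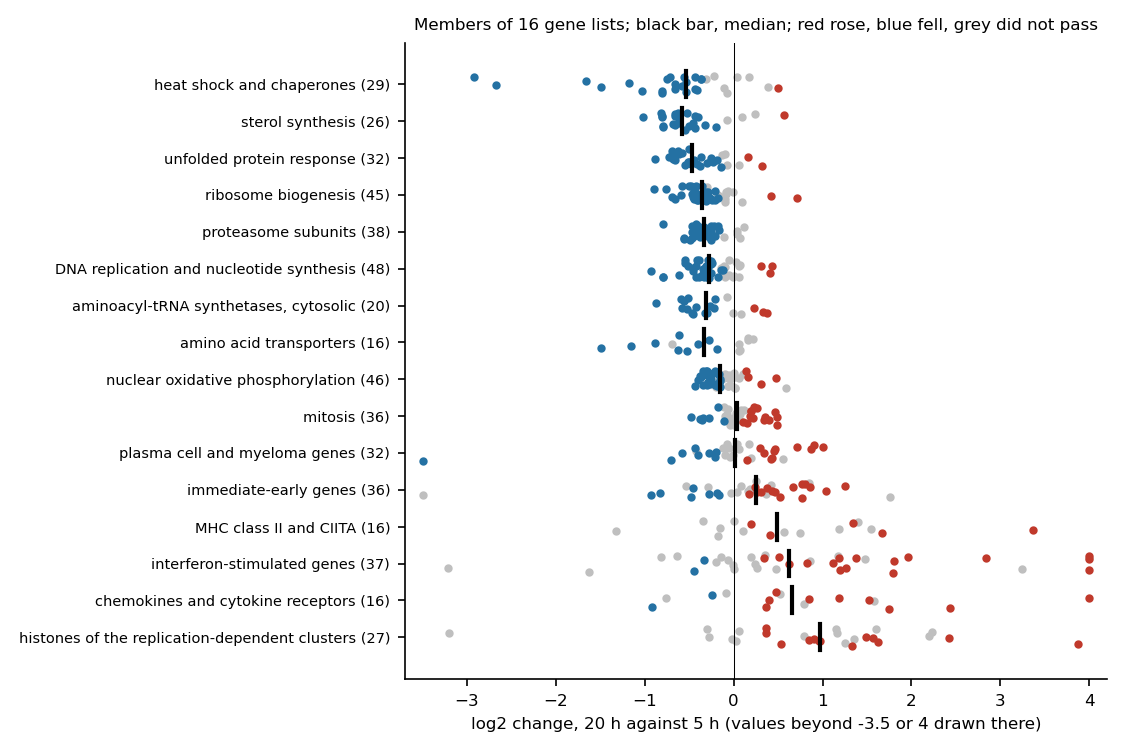
Log2 change from 5 h to 20 h of every tested member of 16 gene lists, 1 point per gene (red rose, blue fell, grey did not pass), with a black bar at the list's median and the number tested in brackets; points beyond -3.5 or 4 are drawn at these limits. The medians run from -0.58 for sterol synthesis to 0.97 for histones, and 8 of the 37 interferon-stimulated genes have at most 3 counts at 5 h or 20 h.

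Long non-coding RNAs with the largest rises were LINC00609 (2.73 and 2.48 to 11.1 and 10.4 CPM, 2.04 ± 0.22, edgeR adjusted p = 7.16e-14), LINC02909 (7.0 and 5.01 to 22.8 and 22.8 CPM, 1.91 ± 0.17), LINC00648 (1.89 ± 0.20) and BTG1-DT (1.86 ± 0.19), the last divergent from BTG1. The largest falls were ZNRD2-DT (-1.02 ± 0.22), SNHG5 (6.42 and 6.41 to 3.38 and 3.58 CPM, -0.88 ± 0.18), SH3BP5-AS1 (-0.84 ± 0.18) and APTR (-0.77 ± 0.17). The strand setting of the counting is not given in the sources used here, so counts of divergent and antisense genes may hold reads of their partners.

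Most genes that had moved at 2 h of ricolinostat moved the other way from 5 h to 20 h. The contrast of 2 h with DMSO shares no library with that of 20 h with 5 h. Of the 3543 genes higher at 2 h than in DMSO (16.9% of genes tested), 2544 fell from 5 h to 20 h (71.8%) and 73 rose (2.06%). Of the 3049 genes lower at 2 h (14.5%), 1837 rose (60.2%) and 141 fell (4.62%). Seen from the other side, 58.7% of all genes that fell from 5 h to 20 h had been higher at 2 h and 50.9% of all that rose had been lower. Among the 14365 genes that did not pass at 2 h, 1700 rose (11.8%) and 1650 fell (11.5%). Across the 20957 genes, which are not independent replicates, the 2 log2 changes had a Pearson r of -0.256 and a Spearman rho of -0.444, given as a description. In a principal component analysis of the DMSO and ricolinostat libraries the first component (35.5% of the variance) put the 2 h libraries at 46.32 and 43.52, the 5 h libraries at 25.99 and 30, DMSO at -12.34 and -12.1 and the 20 h libraries at -60.59 and -60.8, so that the 20 h libraries lay beyond DMSO. Against DMSO, 3935 genes were higher (18.8%) and 3205 lower (15.3%) at 5 h, and 3082 higher (14.7%) and 3432 lower (16.4%) at 20 h. The balance at 5 h turned over with DESeq2 (3015 higher and 3556 lower) and that at 20 h with library size as the only scaling (4389 higher and 2242 lower), so neither has a settled majority. These contrasts share libraries with that of 20 h with 5 h and only place its levels beside DMSO.

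The same interval under the other inhibitors held more changes: 5754 genes rose (27.5%) and 6049 fell (28.9%) with panobinostat, and 6995 rose (33.4%) and 6157 fell (29.4%) with romidepsin. Doses differ (100 nM ricolinostat, 10 nM of each of the others). In the test of the difference itself, 4821 genes (23%) had a higher change with ricolinostat than with panobinostat and 3852 (18.4%) a lower one, and against romidepsin 5488 (26.2%) had a higher and 5131 (24.5%) a lower one (edgeR interaction terms in the same fit, adjusted p below 0.05). With library size as the only scaling both balances turned over, to 4220 higher and 4590 lower against panobinostat and 5295 and 5378 against romidepsin. The 2 differences share the ricolinostat libraries.

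Falls of heat shock genes took different forms. DNAJB1 fell with ricolinostat but rose by 0.80 ± 0.04 with panobinostat and 1.73 ± 0.04 with romidepsin, a difference of -2.46 ± 0.06 (edgeR adjusted p = 2.02e-59) and -3.39 ± 0.06 (edgeR adjusted p = 1.28e-70). HSPA8 fell with all 3 inhibitors and most with panobinostat, from a mean of 5512 CPM at 5 h to 893 at 20 h (difference 1.13 ± 0.05, edgeR adjusted p = 6.35e-41). HSPA1B fell with panobinostat by a smaller amount, -1.82 ± 0.07, and rose with romidepsin by 0.53 ± 0.08 (differences -1.10 ± 0.12 and -3.45 ± 0.12). Over the 29 heat shock genes the change was higher with ricolinostat in 12 and lower in 12 against panobinostat. Sterol genes differed more in 1 direction, with 18 of 26 lower than with panobinostat and 19 lower than with romidepsin, and 2 and 3 higher. Over all genes tested 18.4% had a lower change than with panobinostat and 24.5% than with romidepsin.

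Plasma cell genes had higher changes with ricolinostat than with the others: 25 of 32 had a higher change with ricolinostat than with panobinostat and 24 than with romidepsin (median differences 2.08 and 1.61, against -0.04 and -0.06 for all genes). TNFRSF17 fell from a mean of 43.1 to 1.02 CPM with panobinostat and from 187 to 6.18 with romidepsin, while it rose with ricolinostat (difference 5.80 ± 0.13, edgeR adjusted p = 2.61e-64 against panobinostat). MYC fell by 1.92 and 2.74 on the log2 scale with panobinostat and romidepsin (difference 2.09 ± 0.08, edgeR adjusted p = 1.40e-41 against panobinostat). IGHA2 fell with both of the others to means of 0.129 and 0.293 CPM at 20 h. Of the 36 mitosis genes 29 had a higher change with ricolinostat than with panobinostat and 0 a lower one. Over all genes tested these shares were 23% and 18.4%. The median change of the mitosis genes was -0.58 with panobinostat and 0.04 with ricolinostat.

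Some rises were common to the inhibitors. CYP1A1 rose by 3.31 ± 0.13 with panobinostat, and its change with ricolinostat was not shown to differ from that (-0.32 ± 0.28, edgeR adjusted p = 0.401). Its level was far higher with panobinostat, at a mean of 58.6 CPM at 20 h. CYP1A1 rose less with ricolinostat than with romidepsin (difference -1.205 ± 0.307, edgeR adjusted p = 4.72e-04). TXNIP (0.12 ± 0.06, edgeR adjusted p = 0.0768), GSN (0.07 ± 0.19, edgeR adjusted p = 0.827) and MAP2 (0.41 ± 0.21, edgeR adjusted p = 0.109) likewise did not pass in the difference from panobinostat, and all 3 rose less with ricolinostat than with romidepsin (differences -2.27 ± 0.06, -3.08 ± 0.24 and -2.82 ± 0.26). CDKN1A rose less with ricolinostat than with either (-0.62 ± 0.07, edgeR adjusted p = 2.33e-12 and -2.76 ± 0.08, edgeR adjusted p = 7.15e-56).

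Some of the largest differences were in genes that fell steeply with another inhibitor. With panobinostat GPR171 went from 3.73 to 0.0993 CPM and ANO4, a membrane scramblase or channel of the anoctamin family, from 12.9 to 0.457, whereas ANO4 rose with ricolinostat from 14.7 and 12.5 to 52.6 and 47.3 CPM (difference 6.78 ± 0.25, edgeR adjusted p = 1.85e-42). With romidepsin AFAP1L2 went from 19.5 to 0.695 CPM and WDR72 from 122 to 3.85, against rises of 1.94 ± 0.13 and 1.02 ± 0.06 with ricolinostat. At the other end SLC2A3 and CEACAM20 had at most 2 counts in the 2 ricolinostat libraries of either time, so no fold is given for them. At 20 h of panobinostat they were at means of 13.4 and 30.1 CPM.

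**Figure D5:**
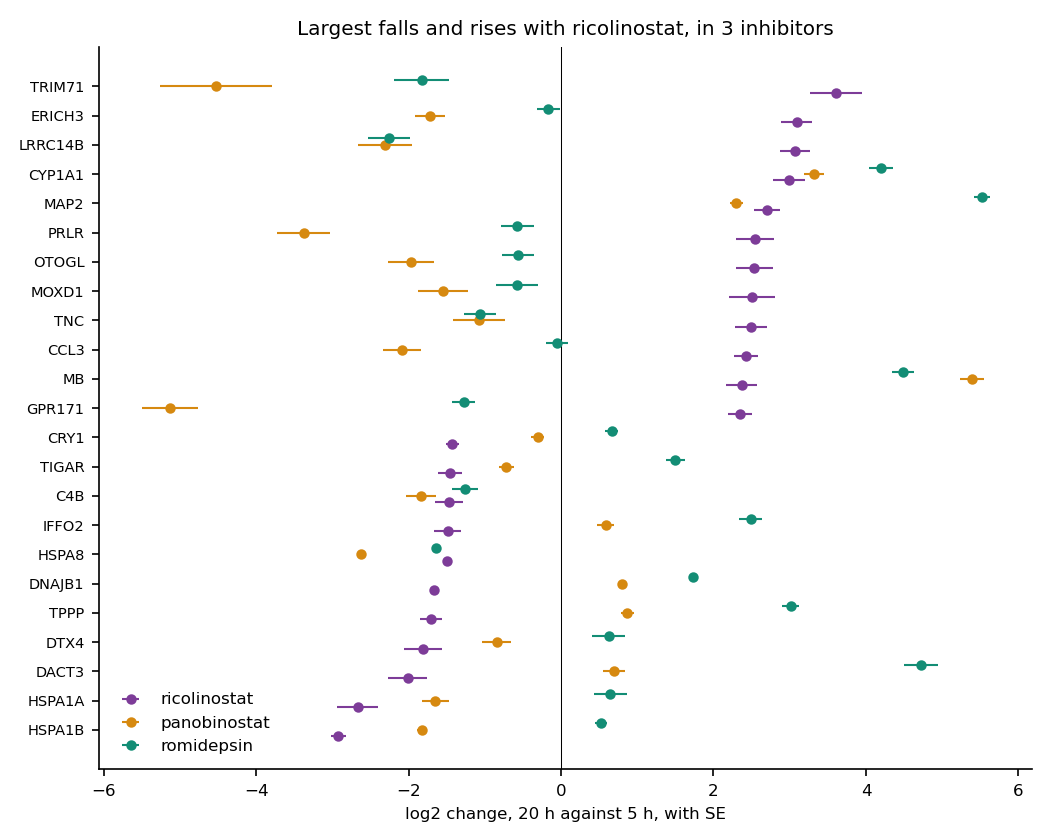
Log2 change from 5 h to 20 h with its SE for 11 of the 12 largest falls and for the 12 largest rises of ricolinostat (purple), beside the change of the same genes with panobinostat (orange) and romidepsin (green), n = 2 libraries per group. MB, MAP2 and CYP1A1 rise in all 3, while the other rises are level or fall with the other inhibitors; TRIM71 had 2 counts at 20 h of panobinostat, so its orange point shows a direction and no size.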

How the data were processed

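RNA-seq libraries of OPM2 cells, made from polyadenylated RNA with strand information per the labels' protocols, were analysed from the raw count table the authors deposited, with 1 count per gene and library. HISAT2, SAMtools, featureCounts and GRCh38 are named in the submitters' processing notes. For versions, annotation release and strand setting, the sources used here give nothing. Symbols came from a table of gene names, and gene types and positions from GENCODE on GRCh38, for the identifiers found there.

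Groups were taken from the labels. All 20 libraries entered 1 fit with a term for each of 10 groups, so that all groups share 1 estimate of the spread (edgeR 4.0.16 in R 4.3.3, TMM scaling, filterByExpr with a minimum count of 10, robust quasi-likelihood F test, two-sided, Benjamini-Hochberg over 20957 genes, threshold 0.05). The biological coefficient of variation was 0.0419. CPM values use the TMM-scaled library size. The script was tested on simulated counts.

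Genes were named by rule: the 12 largest rises and 12 largest falls among protein-coding genes that passed, reached a mean of 5 CPM and did not overlap between libraries; a hand-written panel; up to 4 genes of each list with the largest change that passed and reached 5 CPM; the 4 largest differences between inhibitors in each direction; and the 4 largest changes of long non-coding RNAs at each end. HSP90B1 and SERPINH1 lie outside this rule and were chosen after their values were seen. Some genes that the rule names are not reported here. The comparison, members and lists were chosen with earlier results of these data known. Alternatives were other scalings, other count filters, DESeq2 1.42.0, fits to the compared libraries only, a replicate block and leaving out each library.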

Additional observations from a re-analysis of the deposited data

Results flagged for a closer look

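The change from 5 h to 20 h differed between inhibitors in many genes, by edgeR interaction terms. It was higher with ricolinostat than with panobinostat in 4821 genes and lower in 3852, and higher than with romidepsin in 5488 and lower in 5131. Of the 12 largest rises with ricolinostat, 10 differed from panobinostat and 12 from romidepsin, and of the 12 largest falls 11 differed from panobinostat and 11 from romidepsin. These genes were picked by their change with ricolinostat, which is part of the difference, so these counts are no test. Among all genes tested 23% had a higher and 18.4% a lower change than with panobinostat, and 26.2% and 24.5% than with romidepsin. Doses differ, and the part of dose in these differences cannot be told apart from that of the compound.

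Single genes stood out by the size of the difference on the log2 scale. Against panobinostat it was 7.48 for GPR171 (6 counts at 20 h of panobinostat) and 6.78 for ANO4 (25 counts). Against romidepsin it was 6.75 for AFAP1L2, 6.0 for WDR72, 5.9 for MEI1 and 5.86 for GRB10.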

How the results depend on the processing

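The counts from 5 h to 20 h of ricolinostat were 3470 genes higher and 3708 lower with DESeq2, against 3610 and 4335. With a minimum count of 50, 203 genes fell at least 2-fold, against 324. With library size as the only scaling 2242 genes were lower at 20 h than in DMSO, against 3432. The balance of higher and lower counts turned over in several comparisons. With library size as the only scaling it became 4336 and 3564 from 5 h to 20 h, 4220 and 4590 against panobinostat, 5295 and 5378 against romidepsin, and 4389 and 2242 at 20 h against DMSO. Against romidepsin it also turned over with DESeq2 size factors (5315 and 5335) and DESeq2 (4997 and 5170). At 20 h against DMSO it did so with a minimum count of 50 (3377 and 3075). At 5 h against DMSO it did so with DESeq2 size factors (3294 and 3822), DESeq2 (3015 and 3556), no filter (3173 and 3218) and the compared libraries alone (3438 and 3605). Of 92 counts in gene lists 25 moved by over 1.5 times with at least 1 setting, and the balance turned over in 6 of 46 lists. Among lists described here that was the case for cytosolic ribosomal proteins, where falls went from 17 to between 4 and 8 with 6 settings, to 5 without replicate 2 of 20 h and to 6 without replicate 1 of 5 h. Falls among plasma cell genes went from 8 to 5 with DESeq2, with no filter and with the compared libraries alone. No named gene reversed its direction between 2 fits where it passed the test in at least 1 of them. Changes of sign in genes that passed in neither fit were not counted. Of 212 named genes 13 passed the test under some settings and not under others. Replicate numbers did not pair the libraries: over 45 pairs of groups the correlation of same-numbered deviations ran from -0.123 to 0.0845, and for 5 h and 20 h of ricolinostat it was -0.0427. With the replicate block 3554 genes rose and 4313 fell. Leaving out 1 library at a time gave 2914 to 3051 genes higher and 3674 to 3852 lower, and at least 2-fold 990 to 1094 higher and 241 to 364 lower. For the difference in change it gave 4450 to 4674 higher and 3224 to 3537 lower against panobinostat, and 5148 to 5345 and 4563 to 4928 against romidepsin. Against DMSO it gave 3017 to 3490 higher and 2661 to 2904 lower at 5 h, and 2263 to 2464 and 2811 to 2952 at 20 h. Of genes higher at 2 h than in DMSO, 2111 to 2458 fell from 5 h to 20 h, against 2544, and of genes lower at 2 h, 1500 to 1740 rose, against 1837. Where a group is left with 1 library, that library is assumed to vary like the other groups. Rises of scarce genes rest on few counts, so their sizes are the least certain.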

Other observations

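The light chain constant gene IGLC2, chosen here after its values were seen, differed widely between replicates of the same group at 2 h and 20 h. It held 222 and 212 CPM at 5 h of ricolinostat, 88.4 and 43.2 at 20 h, 11.8 and 55.0 at 2 h and 15.3 and 17.3 in DMSO. Its change from 5 h to 20 h did not pass (-1.72 ± 1.03, edgeR adjusted p = 0.235). IGLC2 has a near-identical copy, IGLC3, so shared reads may be split between them.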
